A study of Mus musculus with 18 samples.

Results

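S100a8 and S100a9 encode the 2 subunits of calprotectin. Both genes were followed across acute colitis, dysplasia and carcinoma of the mouse colorectum. They were taken as every probe set annotated to exactly 1 gene with either symbol, which gave 1 probe set for S100a8 and 1 for S100a9, that is 2 of 18193 genes with such a probe set. Both passed the filter on dim probe sets, among 12877 genes tested. The pair was picked with its levels on these same arrays known, so the levels and differences of both genes are given as a description, without a test.

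Calprotectin is a calcium-binding heterodimer that makes up a large part of the protein in the cytosol of neutrophils and is also made by monocytes and by stressed epithelium. It withholds zinc and manganese from microbes, and once released it can act on the receptors Tlr4 and Ager of other cells. Faecal calprotectin is a clinical marker of intestinal inflammation.

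The 18 arrays hold 6 groups of 3 biological replicates from male ICR mice, an outbred stock, that were 6 weeks old at the start. The diseased groups are inflamed mucosa (2 weeks), low grade dysplasia (LGD, 4 weeks), high grade dysplasia (HGD, 6 weeks), high grade dysplasia with active inflammation (8 weeks) and carcinoma (20 weeks). Their mice had received 1 dose of azoxymethane (AOM), a colon carcinogen, of 10 mg/kg. They then drank dextran sulphate sodium (DSS), a polymer that damages the gut lining, in up to 3 cycles: 2% from day 8 to day 14, 1.5% from day 29 to day 33, and 1.5% from day 50 to day 54. Normal mucosa (2 weeks) came from mice given saline and distilled water. Counted from the stated weeks, the stages fell 0, 14, 9, 2 and 86 days after the last DSS day, after 1, 1, 2, 3 and 3 cycles. There was no group with AOM or DSS alone, and normal mucosa was taken only at 2 weeks, so the agents, and stage and age at the later times, cannot be told apart. The sources used here do not say whether animals were pooled.

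The RefSeq gene table of GRCm38.p6 places both genes next to each other on chromosome 3, with 0 protein-coding genes between them, inside the S100 cluster. Their start regions are shown because the signals of both genes moved together on these arrays. Each runs from 250 bases before to 30 bases after the annotated start. Capitals mark matches, on either strand, to the TATA box letters (TATAAA) or to letters bound by the C/EBP family of transcription factors (TTNNGNAA). The first lies at chr3:90668821-90669100 on the plus strand and the second at chr3:90695692-90695971 on the minus strand (RefSeq, GRCm38.p6).
S100a8: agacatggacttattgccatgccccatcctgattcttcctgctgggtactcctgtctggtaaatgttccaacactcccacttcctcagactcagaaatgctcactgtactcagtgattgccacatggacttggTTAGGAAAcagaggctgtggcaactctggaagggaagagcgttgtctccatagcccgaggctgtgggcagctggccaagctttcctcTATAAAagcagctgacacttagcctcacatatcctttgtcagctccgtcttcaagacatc
S100a9: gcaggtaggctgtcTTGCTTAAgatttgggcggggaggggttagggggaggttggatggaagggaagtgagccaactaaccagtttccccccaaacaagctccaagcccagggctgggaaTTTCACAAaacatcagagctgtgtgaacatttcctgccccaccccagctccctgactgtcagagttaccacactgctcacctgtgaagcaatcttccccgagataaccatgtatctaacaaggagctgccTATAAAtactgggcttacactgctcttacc
S100a8 held 1 TATA match, at -30 to -25 from the start, and 1 C/EBP match, at -117 to -110. S100a9 held 1 TATA match, at positions 1 to 6 after its annotated start, and 2 C/EBP matches, at -236 to -229 and -130 to -123. Among 32851 start regions of the same length, 13.1% held the TATA letters and 39.3% the C/EBP letters. Searches for an NF-kB consensus of 10 letters (19.4% of regions), AP-1 (TGANTCA, 7.46%) and STAT (TTCNNNGAA, 7.83%) found 0 matches in either window. The marked matches do not overlap. A match is a run of letters and not a shown binding site.

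S100a8 had its highest signals in inflamed mucosa, at 15891, 20909 and 22228, against 75.6, 41.7 and 89.9 in normal mucosa (linear signal of the deposited table, replicates 1 to 3). In LGD the signals were 20695, 3330 and 303. The arrays of HGD at 6 weeks had 2277, 5713 and 1992. Replicate 1 of LGD thus lay within the range of inflamed mucosa, while replicate 3 of LGD was the lowest of all lesions. In HGD at 8 weeks they were 12595, 763 and 7947, and in carcinoma 317, 4072 and 2143. The 3 arrays of each of the 5 stages lay above all 3 normal arrays. Across all genes tested this held for 29.3% in inflamed mucosa, 16.3% in LGD, 17.6% in HGD at 6 weeks, 15.5% in HGD at 8 weeks and 14.4% in carcinoma.

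S100a9, the partner that carries a long histidine-rich tail, had signals of 12607, 22138 and 22719 in inflamed mucosa, against 47.0, 15.3 and 62.5 in normal mucosa. In LGD they were 21284, 1799 and 247, and in HGD at 6 weeks 1299, 2939 and 388. As for S100a8, LGD spanned almost the whole range of the treated arrays. In HGD at 8 weeks the signals were 9230, 432 and 3834, and in carcinoma 275, 3510 and 1159. Again all stage arrays exceeded all normal arrays. In inflamed replicate 3 the S100a9 probe set was the brightest of all 45101 on the array, and S100a8 ranked 2, so that these values lie at the top of the measured range. In normal mucosa 18.8% to 51.9% of all probe sets were dimmer than S100a9 and 42.5% to 60.5% dimmer than S100a8, which puts the normal values in the lower and middle part of the arrays.

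**Figure D1:**
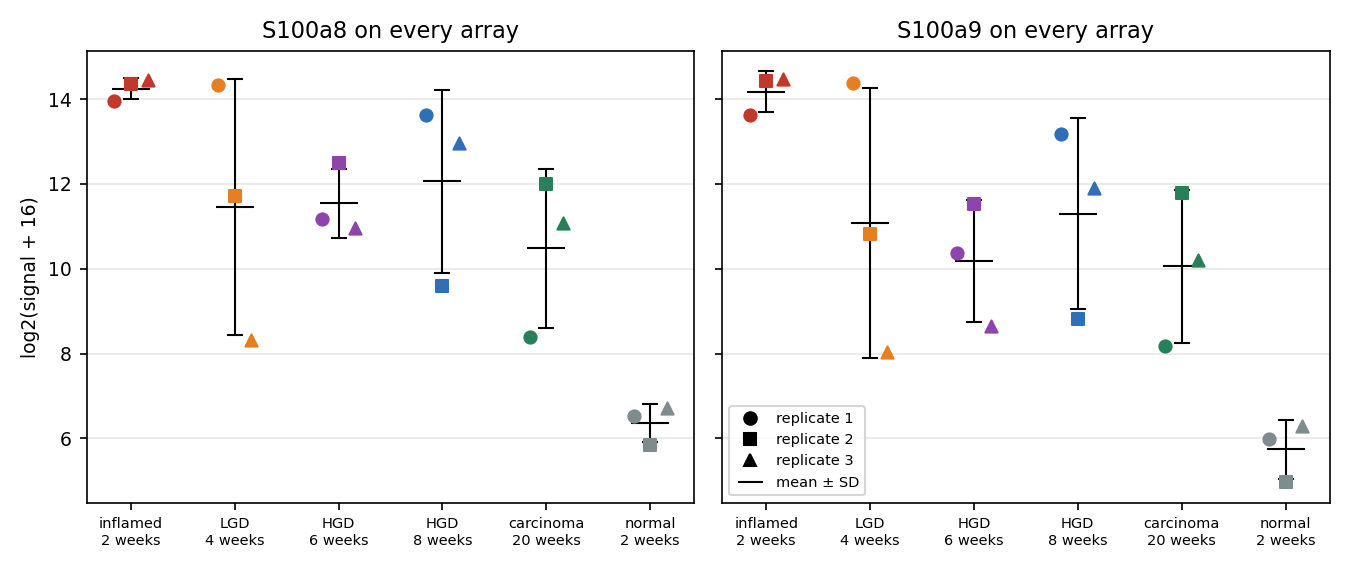
S100a8 (left) and S100a9 (right) as log2(signal + 16) on every array, by group, with replicates 1 to 3 as separate symbols and bars for the mean ± SD (n = 3). All stage arrays lie above the normal arrays, and the 3 LGD arrays run from 8.32 to 14.34 for S100a8.

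Differences were taken on log2(signal + 16), a scale on which the difference of a dim gene is understated. S100a8 averaged 14.25 ± 0.26 in inflamed mucosa and 6.36 ± 0.46 in normal mucosa (SD, n = 3 each), a difference of 7.89 ± 1.30 (standard error, SE, of the model over all arrays). S100a9 averaged 14.18 ± 0.48 in inflamed mucosa and 5.75 ± 0.69 in normal mucosa, a difference of 8.43 ± 1.40. Among 12877 genes these were the second and the first largest increases. The inflamed arrays were tightly grouped, with an S100a8 range of 0.48, while those of LGD spanned 6.02. In bulk tissue, fewer cells of a type and less RNA per cell cannot be told apart.

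S100a8 stood above normal mucosa by 5.09 ± 1.30 in LGD, 5.17 ± 1.30 in HGD at 6 weeks, 5.70 ± 1.30 in HGD at 8 weeks and 4.12 ± 1.30 in carcinoma (SE of the model, n = 3 per group). For S100a9 the differences were 5.34 ± 1.40, 4.44 ± 1.40, 5.55 ± 1.40 and 4.31 ± 1.40. All stages share the same 3 normal arrays. The SE is 1 value per gene, pooled over all groups, so it does not show how far the groups differed in spread. For S100a8 the SD was 3.02 in LGD, 0.82 in HGD at 6 weeks, 2.15 in HGD at 8 weeks and 1.88 in carcinoma. By size of increase S100a8 ranked 2, 6, 1 and 9 among all genes at these 4 stages, and S100a9 ranked 1, 14, 3 and 7.

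The mean S100a8 level was highest in inflamed mucosa (14.25), followed by HGD at 8 weeks (12.06), HGD at 6 weeks (11.54), LGD (11.45), carcinoma (10.48) and normal mucosa (6.36). HGD at 6 weeks and LGD differed by only 0.08 ± 1.30, and without LGD replicate 3 LGD stood second, at 6.66 above normal mucosa. For S100a9 the order was inflamed mucosa (14.18), HGD at 8 weeks (11.30), LGD (11.08), HGD at 6 weeks (10.18), carcinoma (10.06) and normal mucosa (5.75). Inflamed mucosa lay above HGD at 8 weeks on all arrays for both genes, and carcinoma above normal mucosa. The other neighbours in these orders overlapped. Carcinoma was below HGD at 8 weeks by 1.58 ± 1.30 for S100a8 and by 1.24 ± 1.40 for S100a9, about the size of the pooled SE. HGD at 8 weeks stood above HGD at 6 weeks by 0.52 ± 1.30 and 1.12 ± 1.40, within it.

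The spread between replicates was itself large in 3 of the 5 stages. The brightest array exceeded the dimmest 68.2-fold for S100a8 and 86.2-fold for S100a9 in LGD, 16.5-fold and 21.4-fold in HGD at 8 weeks, and 12.8-fold for both in carcinoma. The ratio in HGD at 6 weeks was 2.87 for S100a8 and 7.58 for S100a9, and in inflamed mucosa 1.40 and 1.80. LGD replicate 2 had a log2 ratio of 3 prime to 5 prime Gapdh signal of 1.63, against -0.08 to 0.15 on the other 17 arrays. Without it the LGD difference was 4.96 for S100a8 and 5.46 for S100a9. Without LGD replicate 1 the differences were 3.65 and 3.69, and without replicate 3 they were 6.66 and 6.86.

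The 2 subunit genes tracked each other from array to array. Pearson's r was 0.983 over all 18 arrays, 0.979 over the 15 arrays other than inflamed mucosa and 0.971 over deviations from the group means (Spearman's rho 0.996, 0.993 and 0.932). Both values come from the same arrays, so shared RNA quality and scaling are part of these correlations. The log2 difference S100a9 minus S100a8, set relative to its mean in normal mucosa, was 0.29, 0.70 and 0.65 in inflamed mucosa, against 0.08, -0.26 and 0.19 in normal mucosa. The inflamed mean of 0.55 depended on the pseudocount: it was 0.79 after adding 1 and 0.27 after adding 64, where the lowest inflamed array (0.01) lay within the normal range of -0.07 to 0.06. In HGD at 6 weeks the relative difference was -0.18, -0.34 and -1.70, where replicate 3 stood apart with low S100a9 beside S100a8 at the level of replicate 1. The other stages ran from -0.43 to 0.66 and overlapped normal mucosa, and the sign of their means changed with the pseudocount.

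**Figure D2:**
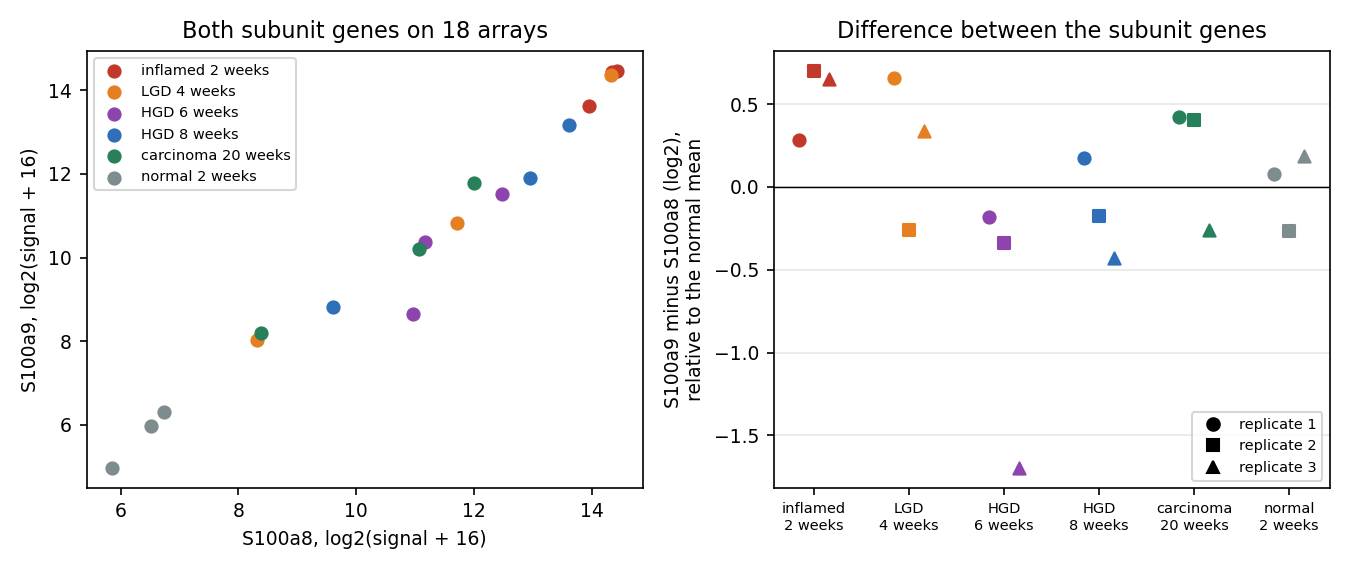
Left, S100a9 against S100a8 on 18 arrays, both as log2(signal + 16), coloured by group. Right, S100a9 minus S100a8 on each array relative to the normal mean (log2), where HGD replicate 3 at 6 weeks lies lowest at -1.70.

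The rest of the S100 family did not reach differences of this size. Of 14 listed relatives 11 had a probe set of their own and 8 passed the filter. In inflamed mucosa 2 of the 8 rose and 5 fell by limma (adjusted p under 0.05), where 46.9% of all genes were called, 22.6% higher and 24.3% lower. The median of the list was -0.47, against 0.01 for all genes. S100a4, a calcium-binding protein of motile stromal and myeloid cells, rose by 1.78 ± 0.26 (adjusted p = 8.2e-05), and S100a13 by 0.61 ± 0.18. S100a14, an epithelial member, fell by 2.62 ± 0.71, and S100g, the intestinal calcium carrier calbindin-D9k, by 2.60 ± 0.83. S100a16 fell by 0.72 ± 0.25, S100a10 by 0.64 ± 0.19 and S100a6 by 0.31 ± 0.10. S100a1 was at -0.24 (adjusted p = 0.391). Without inflamed replicate 2, in which epithelial genes were lowest, 2 of the 8 were called in place of 7. Of all genes 5174 were called in that fit, in place of 6035.

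In LGD 1 of the 8 relatives rose, S100a4 by 1.17 ± 0.26 (adjusted p = 0.0232), where 5.69% of all genes were called. That call was lost on leaving out any 1 of 5 of the 6 arrays compared. In HGD at 6 weeks, HGD at 8 weeks and carcinoma limma called 0 of 8, where 1.14%, 11.3% and 0.901% of all genes were called. S100g had the lowest values there, at -1.63, -1.96 and -0.76. The nearest measured neighbours of the pair on chromosome 3 were S100a6 on one side and Lor, a cornified envelope protein gene, on the other. Lor was at -0.24 in inflamed mucosa (adjusted p = 0.172) and from -0.05 to 0.37 in the lesions.

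**Figure D3:**
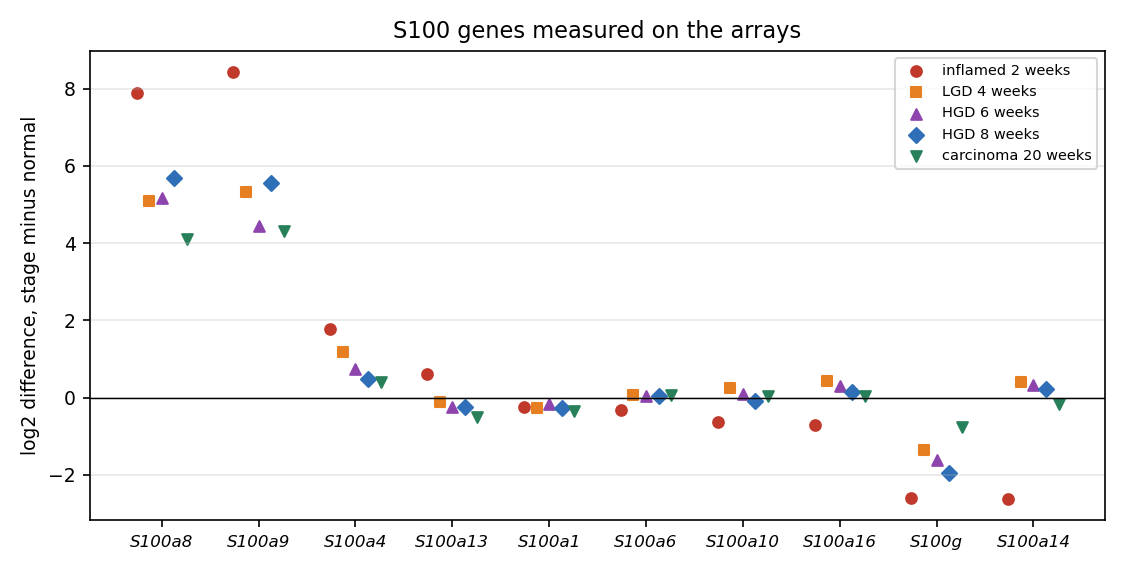
Log2 difference from normal mucosa for S100a8, S100a9 and 8 other S100 genes, with 1 symbol per stage. The pair lies between 4.12 and 8.43 at every stage, while the other genes run from -2.62 to 1.78.

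Genes for receptors and signalling partners of calprotectin were in part higher in inflamed mucosa. Of 14 measured, 7 rose and 0 fell, where 22.6% of all genes rose and 24.3% fell, with a median of 0.65. Lbp, which hands lipopolysaccharide to the receptor Cd14, rose by 2.25 ± 0.37, Cd33 by 1.59 ± 0.19, the adhesion molecule gene Mcam by 1.55 ± 0.25 and Ly96, the coreceptor of Tlr4, by 1.49 ± 0.17. The classical receptor genes did not pass. Tlr4 was at 0.36 (adjusted p = 0.239) and its 2 other probe sets above the filter at 0.72 and 0.45. Ager was at 0.07 (adjusted p = 0.566) and its other probe set at 0.63. In all 4 later stages limma called 0 of 14, where 5.69%, 1.14%, 11.3% and 0.901% of all genes were called. Traf6, a signalling adaptor, was nearest to a call, at 0.46 in carcinoma (adjusted p = 0.0501). Its other probe set above the filter stood at -0.34 there, and those below the filter from 0.0004 to 0.29.

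The phagocyte NADPH oxidase, an enzyme complex that calprotectin helps to activate by carrying arachidonic acid, was higher as a whole in inflamed mucosa. All 5 measured subunits rose, where 22.6% of all genes did, Ncf4 by 2.27 ± 0.46, Cybb by 2.07 ± 0.36, Rac2 by 1.88 ± 0.60 and Ncf1 by 1.86 ± 0.41. The Rac2 call was lost on leaving out any 1 of 4 of the 6 arrays, and its other probe set stood at 0.38. In LGD and in HGD at 8 weeks 1 of the 5 rose, Cyba, the membrane subunit p22phox, by 0.99 ± 0.26 and 1.15 ± 0.26. Of all genes 2.61% and 4.84% rose at these stages. The Cyba call was lost on leaving out any 1 of 5 of the 6 arrays in LGD and any 1 of 4 in HGD at 8 weeks. Limma called 0 of 5 in HGD at 6 weeks and in carcinoma, where 1.14% and 0.901% of all genes were called. Cyba was at 1.07 and 0.61 there.

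Of 10 measured genes for transcription factors linked to S100a8 and S100a9 expression, 7 rose and 1 fell in inflamed mucosa, where 22.6% of all genes rose and 24.3% fell, with a median of 1.12. Cebpb, a C/EBP factor of inflammation and emergency granulopoiesis, rose by 3.05 ± 0.43, Cebpd by 2.33 ± 0.33 and Spi1, the myeloid factor PU.1, by 1.60 ± 0.30. Klf5, which is mainly epithelial in the gut, fell by 3.63 ± 0.42. The second probe set of Cebpd stood at 0.27. In the lesions Cebpb stood at 1.04, 0.13, 0.53 and 0.26 in stage order and passed at none of them. Hif1a, the hypoxia factor, rose by 0.79 ± 0.21 in LGD (adjusted p = 0.0422), as 1 call among the 10, where 2.61% of all genes rose. It was lost on leaving out any 1 of the 6 arrays. At the 3 later stages 0 of 10 were called, where 1.14%, 11.3% and 0.901% of all genes were.

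Inducing cytokines and neutrophil attractants were high with the pair at 2 weeks, and their members differed afterwards. In inflamed mucosa 10 of 12 rose, where 22.6% of all genes did, with a median of 4.14 against 0.01 for all genes. Cxcl5, a ligand of the neutrophil receptor Cxcr2, rose by 7.61 ± 1.05, Cxcl2 by 7.11 ± 1.33, the cytokine gene Il6 by 6.67 ± 0.90 and Cxcl1 by 6.08 ± 1.06. Other Cxcl1 probe sets stood at 3.07 and 5.25. Csf3, the granulocyte growth factor gene, rose by 4.28 ± 0.42. In the lesions Cxcl5 stood at 3.74 in LGD, 4.63 in HGD at 6 weeks, 5.23 in HGD at 8 weeks and 4.08 in carcinoma. It passed at 6 weeks (adjusted p = 0.0495) and at 8 weeks (adjusted p = 0.0106), as 1 call of 12 at each, where 0.621% and 4.84% of all genes rose. The call at 6 weeks was lost on leaving out any 1 of the 6 arrays, and the call at 8 weeks on none.

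Cxcl2 stood at 3.48, 4.61, 4.03 and 3.98 in the 4 lesion stages and passed at none. Csf3 stood at 0.18, -0.01, 0.43 and 0.13, and Il6 at 0.92, 0.66, 1.87 and 0.55, also without a call. The medians of the list were 0.87, 0.73, 1.13 and 0.57 at these stages. S100a8 was 5.09, 5.17, 5.70 and 4.12 above normal mucosa on the same arrays.

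Markers of neutrophils, the cells in which calprotectin is most abundant, were high in inflamed mucosa, where S100a8 and S100a9 were highest. There 13 of 15 rose, where 22.6% of all genes did, with a median of 3.20, and 13 were called whichever single array was left out. Ngp, a granule protein gene of neutrophil precursors, rose by 6.80 ± 1.33, the formyl peptide receptor gene Fpr2 by 5.20 ± 0.88, the collagenase gene Mmp8 by 4.84 ± 1.00 and the decoy receptor gene Il1r2 by 4.69 ± 0.76. In LGD the 15 ran from 0.86 to 3.12 and in HGD at 8 weeks from 0.26 to 1.91. They ran from 0.06 (Mpo) to 1.69 (Pglyrp1) in HGD at 6 weeks, with Ngp at 0.08, Il1r2 at 0.69 and Fpr2 at 0.82, beside 5.17 for S100a8 and 4.44 for S100a9. In carcinoma the list ran from -0.01 (Ngp) to 1.40 (Mmp9), with Il1r2 at 0.86 and Fpr2 at 0.79, beside 4.12 and 4.31 for the pair. Ly6g had no probe set of its own in the annotation used here.

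Counted over the list, limma called 0 of 15 neutrophil markers in LGD (median 1.64), 1 in HGD at 6 weeks (0.42), 1 in HGD at 8 weeks (0.95) and 0 in carcinoma (0.51), where 2.61%, 0.621%, 4.84% and 0.326% of all genes rose. The 1 call at 6 and at 8 weeks was Pglyrp1, a peptidoglycan recognition protein, by 1.69 ± 0.36 and 1.76 ± 0.36. The call at 6 weeks was lost on leaving out any 1 of the 6 arrays, and the call at 8 weeks on none. Pglyrp1 stood at -0.61 in inflamed mucosa. Without LGD replicate 3, 11 of 15 were called in LGD, where the same fit called 1787 of 12877 genes. A fit on only the 6 arrays compared called 5 of 15 in HGD at 6 weeks, and 1633 of 12877 genes. The summed signal of the 15 markers ran from 13212 to 30842 in inflamed mucosa, 3470 to 25634 in LGD, 5275 to 6735 in HGD at 6 weeks, 7534 to 7976 in HGD at 8 weeks and 2608 to 6491 in carcinoma, against 1927 to 2431 in normal mucosa. This sum includes Pglyrp1 and is weighted to the brightest members. The part of neutrophils in the levels of the pair was not tested.

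**Figure D4:**
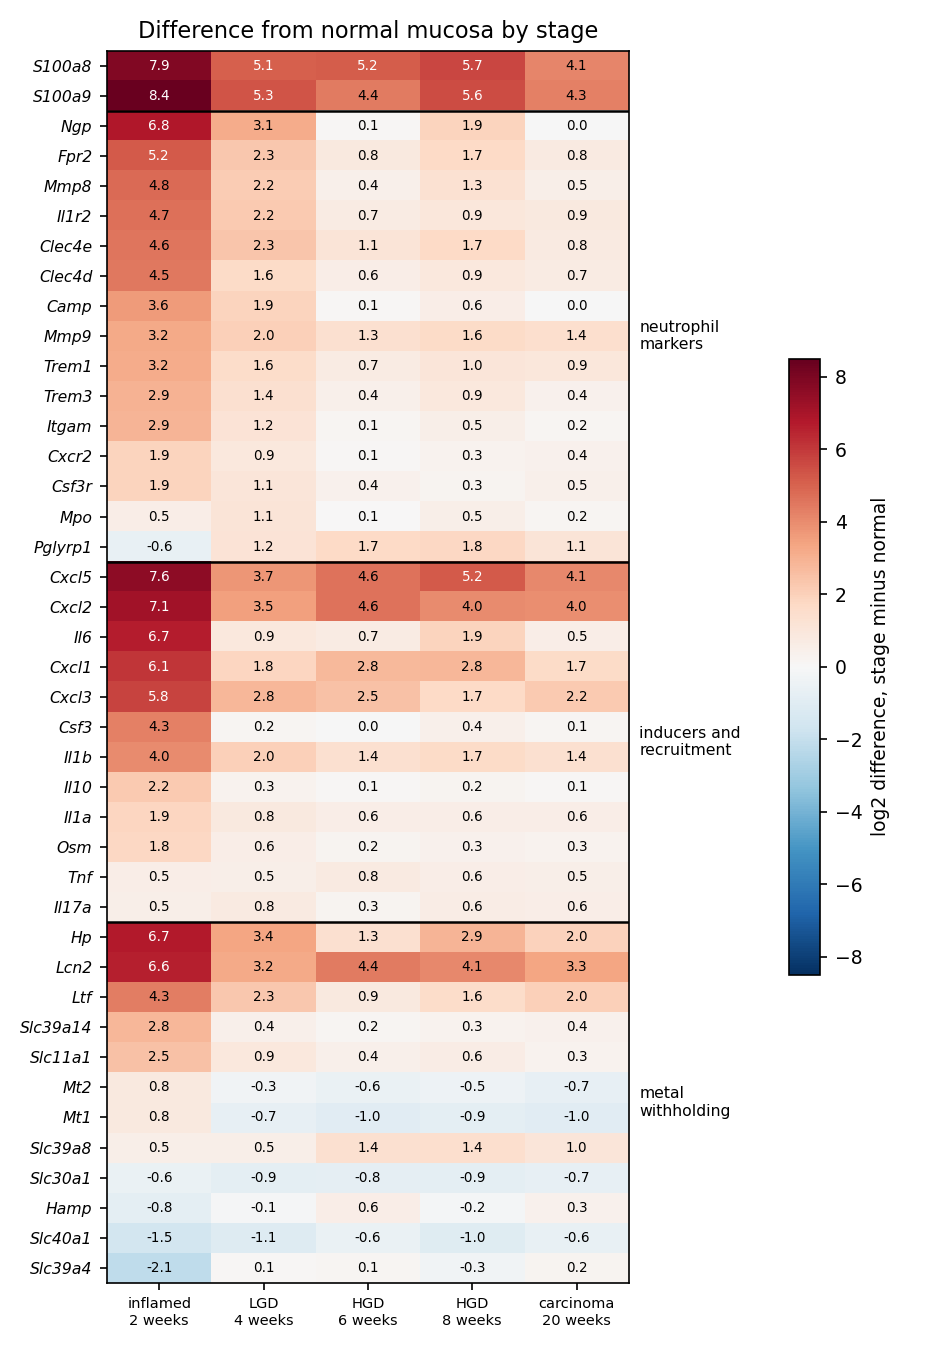
Log2 difference from normal mucosa at each stage for S100a8, S100a9, 15 neutrophil markers, 12 inducers and recruitment genes and 12 metal-withholding genes, as numbers on a colour scale from blue (lower than normal) to red (higher). At 6 weeks the neutrophil markers run from 0.06 to 1.69 and the recruitment genes from -0.01 to 4.63, and at 20 weeks from -0.01 to 1.40 and from 0.13 to 4.08.

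Array by array, the mean log2 value of the neutrophil markers above normal was 2.60, 3.44 and 3.98 in inflamed replicates 1, 2 and 3, and 3.81, 1.12 and 0.27 in LGD. In HGD at 6 weeks it was 0.68, 0.76 and 0.30, in HGD at 8 weeks 1.84, 0.41 and 0.93, and in carcinoma 0.19, 0.96 and 0.56. Within each of these groups the order of the replicates was that of the mean of the pair. The summed signal did not follow that order in HGD at 8 weeks, where it was 7534, 7976 and 7778. Over deviations from group means the list mean had an r of 0.849 with the mean of the pair, and the recruitment list 0.939 (18 arrays, as a description). The metal list had 0.903, the oxidase 0.721, the receptor list 0.702, the regulators 0.645 and endothelial markers 0.593. B and plasma cell markers had 0.469, monocyte and macrophage markers 0.396 and smooth muscle markers -0.559. The other cell type lists and the S100 relatives ran from -0.230 to 0.298.

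**Figure D5:**
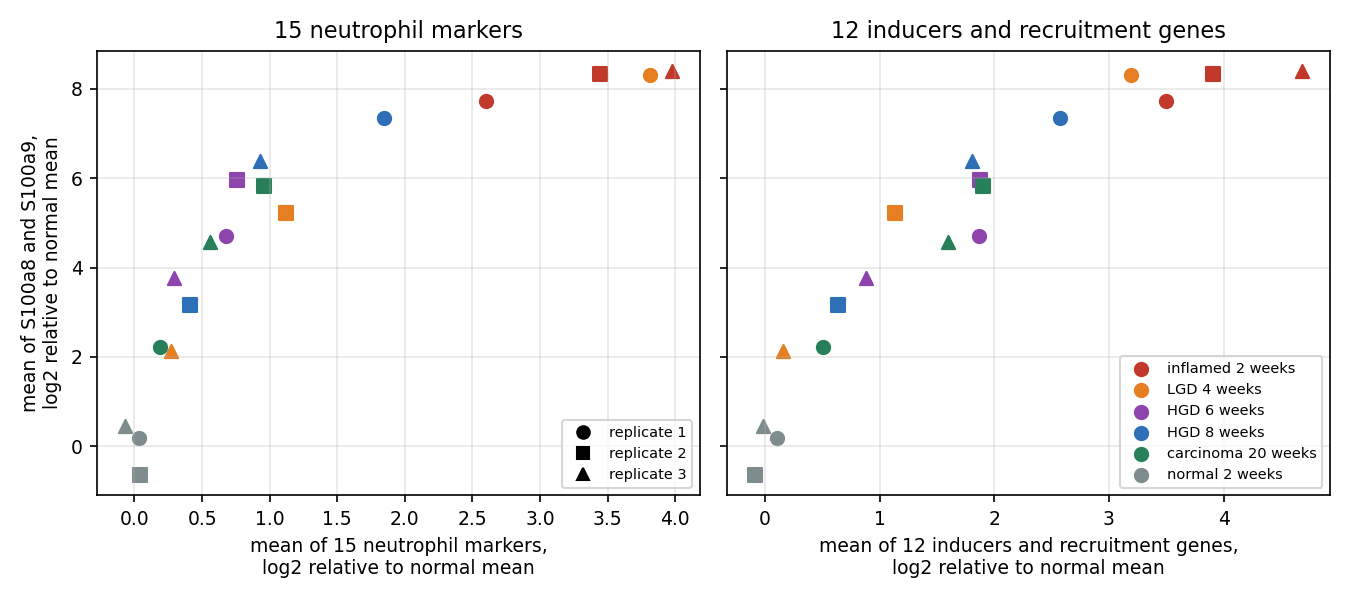
Mean log2 value of S100a8 and S100a9 above normal mucosa (vertical) against that of 15 neutrophil markers (left) and of 12 inducers and recruitment genes (right) on each array, coloured by group, with symbols for replicates. LGD replicate 1 lies among the inflamed arrays in the left panel, at 3.81.

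Other genes that withhold or move metals changed in both directions. In inflamed mucosa 7 of 12 rose and 3 fell, where 22.6% and 24.3% of all genes did. Hp, the haemoglobin scavenger haptoglobin, rose by 6.71 ± 1.09, Lcn2, a siderophore-binding protein, by 6.63 ± 1.07, Ltf, the iron chelator lactoferrin, by 4.34 ± 1.22 and the metal importer gene Slc39a14 by 2.84 ± 0.28. Other Slc39a14 probe sets above the filter stood at 0.89 and 1.15. Slc39a4, the intestinal zinc uptake transporter, fell by 2.15 ± 0.46, the iron exporter gene Slc40a1 by 1.53 ± 0.26 and the zinc exporter gene Slc30a1 by 0.58 ± 0.23. This Slc30a1 call was lost on leaving out any 1 of 4 of the 6 arrays. The other Slc30a1 probe set stood at 0.03 in inflamed mucosa and at -0.22 in LGD. In LGD 0 rose and 2 fell, Slc40a1 by 1.12 ± 0.26 and Slc30a1 by 0.86 ± 0.23, where 3.08% of all genes fell. Both calls in LGD were lost on leaving out any 1 of 5 of the 6 arrays. In HGD at 8 weeks 1 rose, Lcn2 by 4.10 ± 1.07 (adjusted p = 0.0292), and 3 fell, where 4.84% of all genes rose and 6.42% fell. The Lcn2 call was lost on leaving out any 1 of 4 of the 6 arrays. Lcn2 stood at 3.23, 4.42 and 3.33 in LGD, HGD at 6 weeks and carcinoma.

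The metal-storage gene Mt1 rose by 0.82 ± 0.20 in inflamed mucosa. It fell by 0.97 ± 0.20 in HGD at 6 weeks, 0.86 ± 0.20 in HGD at 8 weeks and 0.99 ± 0.20 in carcinoma, as the 1 call of 12 at 6 and at 20 weeks, where 0.52% and 0.575% of all genes fell. The call was lost on leaving out any 1 of the 6 arrays at 6 weeks, 2 of them at 8 weeks and 5 at 20 weeks. Its other probe set stood at -0.18, -0.02 and 0.14 at these stages and at 2.07 in inflamed mucosa.

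The 10 named genes with the highest Pearson r with the mean of S100a8 and S100a9 over 18 arrays were Cxcl5 (0.97), Lcn2 (0.954), Saa3 (0.954), Lrg1 (0.952), Socs3 (0.952), Cxcl2 (0.948), Tmsb4x (0.938), Sik1 (0.933), Clec7a (0.927) and Cxcl1 (0.923). They include chemokines, acute phase and iron-binding proteins, the feedback inhibitor of cytokine signalling Socs3 and the fungal glucan receptor Clec7a. Of 12875 other genes 50 were under -0.9 and 21 exceeded 0.9, among them 1 of the 15 neutrophil markers, Mmp9, at 0.913. Tmsb4x spanned only 0.45 on the log2 scale across arrays, against 7.98 for Cxcl5. The lowest r were those of Arfgap3 (-0.955), Phlpp1 (-0.947), Syne2 (-0.946), Napg (-0.933) and Scamp1 (-0.931).

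Without the 3 inflamed arrays the highest were Anp32e (0.958), Cxcl5 (0.957), Cstb (0.941), Lrg1 (0.94), Socs3 (0.938), Saa3 (0.937), Lcn2 (0.934), Srsf3 (0.929), Pfkfb3 (0.928) and Mfsd2a (0.927). Over deviations from group means, which leave out the differences between stages, they were Cxcl1 (0.95), Cxcl5 (0.945), Stfa2l1 (0.935), Cxcl3 (0.923), Fpr2 (0.922), Cxcl2 (0.916), Il1r2 (0.915), Arid3a (0.912), Selp (0.911) and Lcn2 (0.906). Cxcl5 and Lcn2 were the 2 genes in the first 10 of all 3 orders. The first 2 orders held 0 of the 15 listed neutrophil markers among the 10, and the third held 2, Fpr2 and Il1r2. Lcn2 was counted in the metal list, and genes outside the lists were not sorted by cell type. All of these correlations share the 18 arrays and 6 groups, and array-wide shifts enter them.

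Markers of other cell types were read beside the pair. Of 13 monocyte and macrophage markers 12 rose in inflamed mucosa, where 22.6% of all genes did, led by Cd163 (3.36 ± 0.38), Cd68 (2.96 ± 0.33), Msr1 (2.85 ± 0.32) and Fcgr1 (2.58 ± 0.36). Their summed signal ran from 34018 to 41073 in inflamed mucosa, against 10112 to 14093 in normal mucosa. The other Fcgr1 probe set stood at 0.28 in inflamed mucosa, and those of Msr1 from 1.38 to 2.40. In HGD at 8 weeks 4 of 13 rose, among them Msr1 by 1.04 ± 0.32, and Cd163 fell by 1.75 ± 0.38. Of all genes 4.84% rose and 6.42% fell there. Without normal replicate 2, 0 of these 5 calls were left, where 333 of 12877 genes were called. All 12 general epithelial markers fell in inflamed mucosa, where 24.3% of all genes did, from -3.54 for Vil1 to -2.18 for Cdx2. Their mean on inflamed replicates 1, 2 and 3 was -1.27, -5.30 and -2.50, where S100a8 stood at 7.59, 7.99 and 8.08 above normal mucosa. In the 4 lesion stages limma called 0 of these 12, where 5.69%, 1.14%, 11.3% and 0.901% of all genes were called. Endothelial (7 of 7) and fibroblast (8 of 8) markers also rose in inflamed mucosa. Without inflamed replicate 2, 5 of the 8 fibroblast markers and 5174 of 12877 genes were called. Smooth muscle markers had medians of -0.58, -0.52, -1.12, -1.34 and -0.70 in stage order. In HGD at 8 weeks 3 of 7 fell, Smtn by 1.46 ± 0.43, Cnn1 by 1.44 ± 0.44 and Tagln by 0.99 ± 0.29, each lost on leaving out any 1 of the 6 arrays, and 0 were called at the other stages. Of all genes 6.42% fell in HGD at 8 weeks, and 46.9%, 5.69%, 1.14% and 0.901% were called at the other stages in order. The 1 measured erythroid marker, Alas2, rose by 1.15 in inflamed mucosa and by 1.62 in HGD at 8 weeks. Of all genes 22.6% and 4.84% rose at these stages. Alas2 stood at 0.41, 0.09 and -0.002 in LGD, HGD at 6 weeks and carcinoma. Its call was lost on leaving out 1 of the 6 arrays in inflamed mucosa and any 1 of 2 at 8 weeks. The part of these cell types in the levels of the pair was not tested.

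Of 8 mast cell markers limma called 0 in inflamed mucosa and in carcinoma, where 46.9% and 0.901% of all genes were called. In HGD at 6 weeks 2 of 8 rose, Mcpt2 by 5.02 ± 1.08 and Cpa3 by 2.21 ± 0.50, where 0.621% of all genes rose, each lost on leaving out any 1 of the 6 arrays. Kit, the stem cell factor receptor gene, fell by 0.88 ± 0.21 in LGD and by 1.05 ± 0.21 in HGD at 8 weeks, as 1 of 8 at each, where 3.08% and 6.42% of all genes fell. The call at 8 weeks held whichever array was left out, and that in LGD was lost without any 1 of 5. The summed signal of the 8 ran from 6309 to 9723 in HGD at 6 weeks, against 516 to 1008 in normal mucosa. T cell markers gave 0 of 5 calls in inflamed mucosa and B and plasma cell markers 1 of 6, Pou2af1 (1.61 ± 0.57). Of all genes 46.9% were called there. The Pou2af1 call was lost on leaving out any 1 of 5 of the 6 arrays.

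Squamous epithelium, which makes both subunits, could enter samples taken near the anus. Of 8 measured squamous markers 0 rose and 1 fell in inflamed mucosa, Serpinb5 by 2.38 ± 0.60, where 22.6% of all genes rose and 24.3% fell. Limma called 0 of 8 in each lesion stage, where 5.69%, 1.14%, 11.3% and 0.901% of all genes were called. The medians of the list were 0.24, 0.24, 0.24 and 0.58 there. The list mean per array ran from -0.07 to 0.12 in normal mucosa, from -0.75 to -0.05 in inflamed mucosa and from 0.52 to 1.07 in LGD. It ran from 0.53 to 0.54 in HGD at 6 weeks and from 0.34 to 0.55 in HGD at 8 weeks. On carcinoma replicates 1 to 3 it stood at 0.27, 1.53 and 0.32. Its r with the mean of the pair was 0.008 over 18 arrays and 0.566 over the 15 without inflamed mucosa. Krt5 stood at -0.05 in inflamed mucosa and from -0.12 to 0.57 in the lesions. Krt14 had the highest value of the list, 2.29 in LGD (adjusted p = 0.111). Its other probe set above the filter stood at 1.55, 1.08, 1.10 and 1.17 in the lesion stages in order. The summed signal of the 8 was 371 to 949 in inflamed mucosa, 1772 to 3195 in LGD, 1789 to 2009 in HGD at 6 weeks, 1602 to 1972 in HGD at 8 weeks and 1357 to 3037 in carcinoma, against 1026 to 1524 in normal mucosa. Its part in the lesion levels of the pair was not tested.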

How the data were processed

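Total RNA of 18 colorectal samples was labelled by an Affymetrix protocol, per the labels, and read on 1 array per sample. The deposited values are intensity, a linear signal per probe set made by the authors. MAS5 appears in the submitters' processing notes, without a version or its role. Array medians ran from 55.7 to 57.8, so no scaling was added. The number of arrays limits the precision.

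Signals were taken to log2 after adding 16. Probe sets with 1 annotated gene were kept when at least 3 arrays exceeded the table median of 56.6, and each gene was read on its brightest probe set by mean (12877 genes). The S100a8 probe set is of a type marked as able to bind related transcripts. All arrays entered 1 limma 3.58.1 model in R 4.3.3 (6 group means, 12 residual degrees of freedom, intensity trend), and each stage was compared with normal mucosa. P-values are 2-sided, adjusted by Benjamini-Hochberg over all genes, threshold 0.05. The fit was run on simulated data with 1 spread per gene shared by all groups and changes in inflamed mucosa only. That setting cannot show how sound the calls at the lesion stages are, where spreads differed between groups. The labels call replicates biological but do not tie them to single animals, so p-values measure the spread between these samples.

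Members and gene lists were chosen with earlier results of these data known. Named genes are all S100 relatives, from each other list the passing members that changed most (at most 4 in inflamed mucosa and 3 at each later stage, or the one with the smallest p), the genes most alike, and Tlr4, Ager, Cebpb, Lcn2, Ly6g and Krt5; a part of them is given in the text. Genes given beyond this rule, such as Mmp9, Mpo, Csf3 and Krt14, were chosen after their values were seen. Alternatives were pseudocounts of 1 and 64, quantile normalization, no filter, fits on the 6 arrays compared, the replicate number as a block, and leaving out each array. Same-numbered samples did not deviate together (11 of 45 pairs with a correlation over 0.1), so the numbers were not taken as pairs.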

Additional observations from a re-analysis of the deposited data

How the results depend on the processing

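The differences of S100a8 and S100a9 from normal mucosa kept their sign under every alternative run. Of 120 such values 118 moved by less than 1 SD between replicates, and 2 moved by more. With a pseudocount of 64 the inflamed differences were 7.22 for S100a8 and 7.49 for S100a9. Most of the 120 outcomes were fixed in advance. No filter, fits on the 6 arrays compared and the replicate block left each difference unchanged. Leaving out 1 of 3 arrays cannot shift a group mean by the SD used. The count of 118 is therefore no measure of stability. Leaving out single arrays gave S100a8 differences of 7.63 to 8.07 in inflamed mucosa, 3.65 to 6.66 in LGD, 4.70 to 5.46 in HGD at 6 weeks, 4.92 to 6.93 in HGD at 8 weeks and 3.36 to 5.17 in carcinoma. For S100a9 they were 8.04 to 8.71, 3.69 to 6.86, 3.76 to 5.20, 4.61 to 6.80 and 3.45 to 5.25.

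The number of genes called was 6035, 733, 147, 1450 and 116 in stage order. Fits on only the 6 arrays compared gave 50 in LGD, 1633 in HGD at 6 weeks, 761 in HGD at 8 weeks and 529 in carcinoma. With the replicate number as a block it was 31 in HGD at 6 weeks and 44 in carcinoma. Leaving out single arrays gave 5099 to 5794, 70 to 1787, 6 to 127, 333 to 2202 and 8 to 287. The cause was not tested. Of the 10 genes most like the pair, 5 stayed among the 10 without the inflamed arrays and 4 over deviations from group means. Of counts of list members called under alternatives, 854 equalled the main count or were within 1.5 times, and 166 were not. The 854 include counts of 0 in both fits, and most lists had 0 calls at each lesion stage in the main fit. They are thus no measure of how stable the calls were. With only the 6 arrays compared, 5 of 15 neutrophil markers and 5 of 12 recruitment genes were called in HGD at 6 weeks. Of the 30 calls of listed genes in the lesion stages, 3 held under all 12 alternatives run for each (Cxcl5, Pglyrp1 and Kit in HGD at 8 weeks), and 0 changed sign. The mean of S100a9 minus S100a8 relative to normal mucosa, recomputed with other pseudocounts after the data were seen, was 0.79 in inflamed mucosa and 0.089 in HGD at 8 weeks after adding 1, and 0.27 in inflamed mucosa, -0.011 in LGD and -0.067 in carcinoma after adding 64.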
